A study of Homo sapiens with 13 samples.

Results

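The regions described here are the peaks of the acetyltransferases p300 and CBP in MDA-MB-231, an established human cell line from a triple-negative breast cancer of the basal b type, grown in serum-containing medium with no treatment named in the labels. They come from 1 ChIP-seq library, made from pooled immunoprecipitations with an antibody that recognises p300/CBP and cannot tell the 2 proteins apart, so no replicate error can be given. H3K4me1, H3K27ac, H3K4me3, RNA polymerase II (Pol II) and CTCF were mapped in the same cells with 2 libraries each, merged by the authors before peak calling. Of 13984 listed p300/CBP peaks, 13719 lay on chromosomes 1 to 22 and X of hg19, and the 9050 with every base more than 5 Mb from the longest run of undetermined bases of their chromosome are described (64.7% of the list). Just outside this limit, 249 peaks lay between 4 and 5 Mb from the run, and just inside it 126 lay between 5 and 6 Mb. The list gives positions only, with no height or score per peak, and depth is unknown from it.

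p300 (EP300) and CBP (CREBBP) are paired coactivators that are brought to DNA by transcription factors and acetylate histones, including lysine 27 of histone H3 (H3K27ac), the mark of active enhancers and promoters. Enhancers also carry H3K4me1, whereas promoters carry H3K4me3. AP-1, a dimer of Fos and Jun proteins, is one of the factors that recruit them, and its site is TGACTCA, the TPA response element, which reads TGAGTCA on the other strand.

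The 9050 peaks were short: their width ranged from 100 to 1800 bp with a median of 150 bp, 3695 of them (40.8%) had the smallest width of 100 bp and 188 reached 500 bp. They covered 1.81 Mb in all, 0.0686% of the sequence kept. Whether the sequence under each peak is found elsewhere was read from its 31-base words. In 8157 peaks (90.1%, 95% Wilson interval 89.5% to 90.7%) at least 50% of the words occurred once in chromosomes 1 to 22, X and Y, and these are called peaks found once. In the other 893 most words were repeated, and in 569 no word was unique. This split was chosen after the values had been seen, and the main results are given with and without the repeated peaks.

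The sequences below are of peaks found once near genes that recur in the results, all on the plus strand of hg19 (GRCh37), with TGACTCA on either strand in capitals. The AGTPBP1 peak, chosen by a fixed rule, lay in a promoter window 1.33 kb upstream of the transcription start site (TSS) of a tubulin deglutamylase. The others are the widest peaks of at most 300 bp with the motif at their locus, taken outside untranslated regions and chosen after the values had been seen. They lay 21.9 kb upstream of DUSP6 (a phosphatase of the ERK kinases), 20.1 kb upstream of KLF6 (a zinc-finger transcription factor), 25.3 kb upstream of IER3 (an immediate early gene) and 23.2 kb upstream of PLAU (the protease urokinase), where the nearest TSS was that of CAMK2G at 13.3 kb. All 5 overlapped H3K27ac along their whole length.
AGTPBP1, chr9:88358151-88358251: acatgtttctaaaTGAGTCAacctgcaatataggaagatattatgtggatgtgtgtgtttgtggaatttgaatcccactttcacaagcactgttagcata
DUSP6, chr12:89768001-89768301: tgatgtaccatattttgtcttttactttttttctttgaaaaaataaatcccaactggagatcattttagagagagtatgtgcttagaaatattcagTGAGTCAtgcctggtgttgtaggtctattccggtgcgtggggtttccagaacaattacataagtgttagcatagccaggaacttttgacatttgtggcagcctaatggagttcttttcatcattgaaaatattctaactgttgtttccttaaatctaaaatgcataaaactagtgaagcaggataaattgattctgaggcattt
KLF6, chr10:3847401-3847701: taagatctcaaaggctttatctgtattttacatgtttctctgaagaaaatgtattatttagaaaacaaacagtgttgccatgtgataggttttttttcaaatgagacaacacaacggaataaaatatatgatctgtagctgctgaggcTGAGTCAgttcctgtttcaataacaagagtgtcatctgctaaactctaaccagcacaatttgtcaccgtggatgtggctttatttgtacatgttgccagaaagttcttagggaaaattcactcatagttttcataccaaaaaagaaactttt
IER3, chr6:30737451-30737751: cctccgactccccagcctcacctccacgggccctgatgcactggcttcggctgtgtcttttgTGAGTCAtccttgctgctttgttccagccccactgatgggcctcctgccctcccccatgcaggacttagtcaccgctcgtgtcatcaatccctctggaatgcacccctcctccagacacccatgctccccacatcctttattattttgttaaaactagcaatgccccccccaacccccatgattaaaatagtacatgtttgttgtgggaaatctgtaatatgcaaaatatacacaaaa
PLAU, chr10:75647501-75647801: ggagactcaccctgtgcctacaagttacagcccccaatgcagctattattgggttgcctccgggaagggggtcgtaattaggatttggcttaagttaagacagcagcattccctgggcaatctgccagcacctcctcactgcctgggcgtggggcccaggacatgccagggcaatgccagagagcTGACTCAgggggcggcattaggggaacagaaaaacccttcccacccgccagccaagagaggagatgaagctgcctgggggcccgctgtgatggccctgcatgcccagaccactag

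A second set of sequences shows loci where the list was most crowded. For 3 of the 8 largest clusters the widest peak of at most 300 bp is printed, under the name of the gene with the nearest TSS. The words of these peaks occurred a median of 17, 5 and 9 times in the genome, and none of the 3 peaks held TGACTCA or overlapped H3K27ac. By the same rule, the peak of the cluster nearest OR2Z1, not printed here, did hold 1 TGACTCA. The PCBD2 peak lies within PCBD2 (a pterin dehydratase), and 124 of the 24-base words in it were shared with the mitochondrial genome.
SULT2A1, chr19:48414551-48414851: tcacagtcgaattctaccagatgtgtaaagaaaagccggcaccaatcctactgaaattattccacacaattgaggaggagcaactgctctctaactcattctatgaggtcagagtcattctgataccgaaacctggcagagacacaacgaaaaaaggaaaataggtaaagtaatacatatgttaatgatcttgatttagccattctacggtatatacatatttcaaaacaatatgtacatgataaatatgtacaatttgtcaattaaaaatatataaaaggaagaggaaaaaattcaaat
ANKRD30BL, chr2:132984401-132984651: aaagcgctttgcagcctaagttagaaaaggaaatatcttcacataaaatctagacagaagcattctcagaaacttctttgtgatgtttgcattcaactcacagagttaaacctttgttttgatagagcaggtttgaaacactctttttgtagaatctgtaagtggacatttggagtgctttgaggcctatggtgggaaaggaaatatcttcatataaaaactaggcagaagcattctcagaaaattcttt
TAF11L7, chr5:17581951-17582201: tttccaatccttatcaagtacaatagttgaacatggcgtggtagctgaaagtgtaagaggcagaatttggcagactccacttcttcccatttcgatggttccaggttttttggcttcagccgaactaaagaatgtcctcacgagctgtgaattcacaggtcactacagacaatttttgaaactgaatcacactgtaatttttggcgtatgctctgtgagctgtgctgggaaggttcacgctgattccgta
PCBD2, chr5:134261051-134261351: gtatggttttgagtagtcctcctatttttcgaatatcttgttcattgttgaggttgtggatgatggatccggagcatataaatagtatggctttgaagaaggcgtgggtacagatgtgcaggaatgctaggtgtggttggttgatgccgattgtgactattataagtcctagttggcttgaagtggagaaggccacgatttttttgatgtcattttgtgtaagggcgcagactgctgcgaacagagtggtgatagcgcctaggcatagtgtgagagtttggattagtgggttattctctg

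Most p300/CBP peaks lay in chromatin with enhancer marks. H3K27ac shared at least 1 bp with 69.1% of the 9050 peaks (95% Wilson interval 68.2% to 70.1%). Among the peaks found once it overlapped 75.5% (74.6% to 76.4%), and H3K4me1 overlapped 86.9% (86.1% to 87.6%). Pol II overlapped 18.2% (17.3% to 19.0%), H3K4me3 11.0% (10.3% to 11.7%) and CTCF 1.70% (1.45% to 2.01%). Both H3K4me1 and H3K27ac were present at 5751 of the 8157 peaks (70.5%), and none of the 3 histone marks at 641 (7.86%). The 893 repeated peaks carried enhancer marks far less often, with H3K27ac at 11.1% (9.19% to 13.3%) and H3K4me1 at 14.4% (12.3% to 16.9%). Pol II overlapped 5.26% (3.98% to 6.93%) of them and H3K4me3 7.39% (5.85% to 9.30%). CTCF overlapped 4.14% (3.02% to 5.66%), a higher share than among the peaks found once. The intervals here and below cover counting error only, since all peaks come from 1 library. They also count each peak as independent, which many repeated peaks are not. Of the 893, 198 lay in 1 cluster on chromosome 8 and 52 in 1 on chromosome 19, none of them in H3K27ac.

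Wider peaks carried H3K27ac more often. It overlapped 62.7% (61.0% to 64.4%) of the found-once peaks of 100 bp, 76.1% (74.1% to 78.0%) of those of 150 to 200 bp, 85.4% (83.8% to 86.9%) at 250 to 300 bp, 91.9% (90.1% to 93.4%) at 350 to 450 bp and 93.4% (88.6% to 96.3%) from 500 bp. Pol II rose along the same classes from 12.2% (11.1% to 13.4%) to 47.9% (40.5% to 55.4%). A wider peak has more bases with which to touch another region, and the part of this in the rise was not tested.

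Within an acetylated region the peaks were central. Of 6100 found-once peak centres inside H3K27ac, 3862 (63.3%, 62.1% to 64.5%) lay in the central 33.3% of the region's length, where an even spread would place 33.3%. In H3K27ac regions of at least 1.5 kb the share was 62.1% (60.8% to 63.4%) of 5443 centres. Of the 1998 found-once peaks that touched no H3K27ac, 746 (37.3%) lay less than 1 kb from a region with the mark, 210 of them with such a region within 1 kb on both sides. The median gap from the 1998 to the mark was 8.18 kb.

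Seen from the acetylated regions, p300/CBP peaks were more often at distal and at wide ones. Found-once peaks overlapped 4791 of 38606 H3K27ac regions (12.4%, 12.1% to 12.7%). They overlapped 16.7% (16.3% to 17.2%) of the 27859 regions centred 1.5 kb or more from a TSS and 1.19% (1.003% to 1.41%) of the 10747 closer ones, although the closer regions were wider (median 1800 against 1100 bp). With width classes cut at the quartiles of all H3K27ac regions (600, 1300 and 2250 bp), the share of distal regions with a peak was 0.555% in the narrowest class, 5.51% in the second, 20.6% in the third and 50.1% (48.9% to 51.4%) in the widest. The median widths of these classes were 350, 950, 1700 and 3400 bp. A wider region has more bases in which a peak can fall, and the part of this in the rise was not tested.

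The AP-1 site was the motif with the greatest excess in the peaks. TGACTCA was present in 29.9% of the 9050 peaks (28.96% to 30.8%) and in 2639 of the 8157 found once (32.4%, 31.3% to 33.4%). Of all windows of the same lengths in the same sequence 3.11% held it, a 10.4-fold lower share. Windows lying wholly inside H3K27ac held it in 6.85% of cases, against 35.5% (34.3% to 36.7%) of the peaks with H3K27ac, or 5.18-fold. Allowing any middle base (TGANTCA, which includes TGACTCA) gave 42.6% of the found-once peaks against 6.32% of windows. Among the 893 repeated peaks only 7.39% (5.85% to 9.30%) had TGACTCA.

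The motif sat at the centre of the peaks. The 3158 matches inside found-once peaks lay a median of 34.5 bp from the peak centre, a distance bounded by the short peaks, and 53.4% lay in the central 33.3% of the peak's width. In steps of 20 bp, the most populated one, next to the centre, held 5.76 matches per 100 peaks, 17.8 times the average of 0.323 for all sequence kept. Between 400 and 500 bp away there were 0.468 per 100 peaks. There was 1 match in 2181 peaks and at least 2 in 458, with 8 in the peak that had the most.

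**Figure D1:**
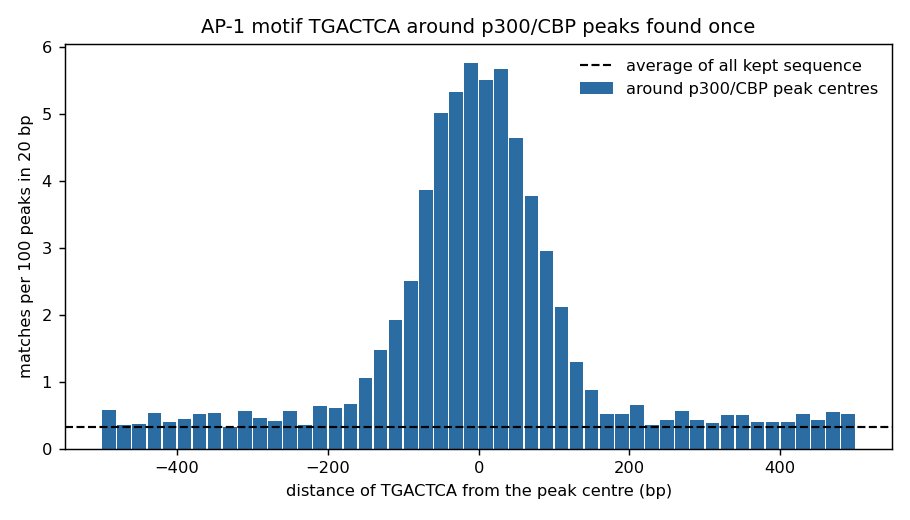
Number of TGACTCA matches on either strand (per 100 found-once p300/CBP peaks, vertical axis) in 20-bp steps of distance from the peak centre (bp, horizontal axis), with the average of all kept sequence as a dashed line. Matches rise to 5.76 per 100 peaks at the centre and fall to 0.468 at 400 to 500 bp.

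Few AP-1 sites of the genome were under a peak, and the flanking bases went with it. Of 426835 TGACTCA matches in the kept sequence 3253 (0.762%, 0.736% to 0.789%) lay in a kept peak. Inside H3K27ac the share was 12.1% (11.6% to 12.499%) of 21710 matches and outside it 0.157% (0.145% to 0.169%) of 405125. Among the 16 extensions by 1 base on each side, read on the strand with C in the middle, ATGACTCAT was under a peak most often (1.46%, 1.32% to 1.62%) and TTGACTCAA least (0.165%, 0.121% to 0.227%). Within H3K27ac alone the same extensions stood at 17.0% (15.3% to 18.8%) and 5.28% (3.63% to 7.63%). ATGACTCAG and CTGACTCAT followed with 15.3% each and CTGACTCAG, the most common extension in the kept sequence with 36345 matches, stood at 7.53% (6.44% to 8.78%).

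Sites of other factor families showed smaller excesses over all windows of the same lengths. The TEAD site ACATTCCA, used by the partners of YAP and TAZ, was in 3.87% (3.48% to 4.31%) of found-once peaks against 1.08% of windows, and its shorter core GGAATG in 22.9% against 10.6%. The RUNX site TGTGGTT was in 11.9% (11.2% to 12.6%) against 3.89%, and the forkhead site TGTTTAC in 8.45% (7.86% to 9.07%) against 3.16%. Rarer letters had few matches: the C/EBP palindrome TTGCGCAA was in 10 peaks (0.123% against 0.0218%) and the cyclic AMP response element TGACGTCA in 22 (0.270% against 0.0714%). For these 2 rare sites the excess was smaller in the peaks with H3K27ac against windows inside H3K27ac. It was 0.114% against 0.0547% for C/EBP and 0.308% against 0.265% for the cyclic AMP response element. The excess of ACATTCCA, RUNX and forkhead sites changed little there, at 3.72-fold, 3.09-fold and 2.61-fold, beside 3.60-fold, 3.06-fold and 2.67-fold over all windows. The site AGATAAG of the GATA factors was in 4.23% against 2.96% (4.19% against 2.56% inside H3K27ac). The E-box CACGTG was in 2.07% against 1.87% (2.42% against 3.22% inside H3K27ac). The NF-kB sites GGGATTTCC and GGGACTTTC were in 0.221% against 0.129% and 0.135% against 0.119%. At least 1 of 4 letter strings (TGACTCA, the TEAD core, and the RUNX and forkhead sites above) was present in 56.6% of the found-once peaks and at least 2 in 16.6%. The peaks had 43.0% G and C bases against 40.9% in all kept sequence.

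Motifs of promoters and insulators were at or under the level of acetylated sequence. The SP/KLF box GGGGCGGGG was in 0.438% (0.301% to 0.637%) of the found-once peaks with H3K27ac, against 2.71% of windows inside H3K27ac. The ETS site ACCGGAAGT was in 3 such peaks (0.0487% against 0.138%), the NF-Y box CCAATCA in 1.72% (1.43% to 2.08%) against 2.18%, and the CTCF core AGGGGGCGC in 2 (0.0325% against 0.422%). Against all windows, the found-once peaks held the SP/KLF box in 0.343% against 0.296% and the ETS site in 0.0368% against 0.0211%. The NF-Y box stood at 1.61% against 2.23% and the CTCF core at 0.0245% against 0.0467%. Within 1.5 kb of a TSS lay 27.8% of H3K27ac regions but 1.51% of these peaks, and the part of this was not tested. A match describes these letters in these windows and is no evidence of a bound factor.

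Few p300/CBP peaks were near a TSS. Using 1 canonical TSS per protein-coding gene, 160 of the 9050 peak centres lay within 1.5 kb of a TSS (1.77%, 1.52% to 2.06%), and 123 of the 8157 found once (1.51%, 1.27% to 1.80%), where 1.95% of all kept bases lie. For comparison, 27.8% of H3K27ac, 48.5% of H3K4me3, 36.4% of Pol II, 9.04% of H3K4me1 and 8.93% of CTCF peaks lay so close. The median distance was 71.9 kb (95% interval 69.1 to 74.4 kb) for the p300/CBP peaks and 83.9 kb for all bases, against 19.1 kb for H3K27ac and 34.5 kb for CTCF. The found-once peaks were most frequent, relative to bases, between 50 and 100 kb (19.8%, 19.0% to 20.7%, against 15.8%) and least frequent beyond 500 kb (6.72%, 6.20% to 7.28%, against 12.6%). Beyond 1.5 kb, 43.9% (42.8% to 45.0%) of them were upstream of the nearest TSS, against 43.3% of bases. These distances depend on the annotation: with all TSSs of basic transcripts the median fell to 15.6 kb and the share within 1.5 kb rose to 9.15%.

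**Figure D2:**
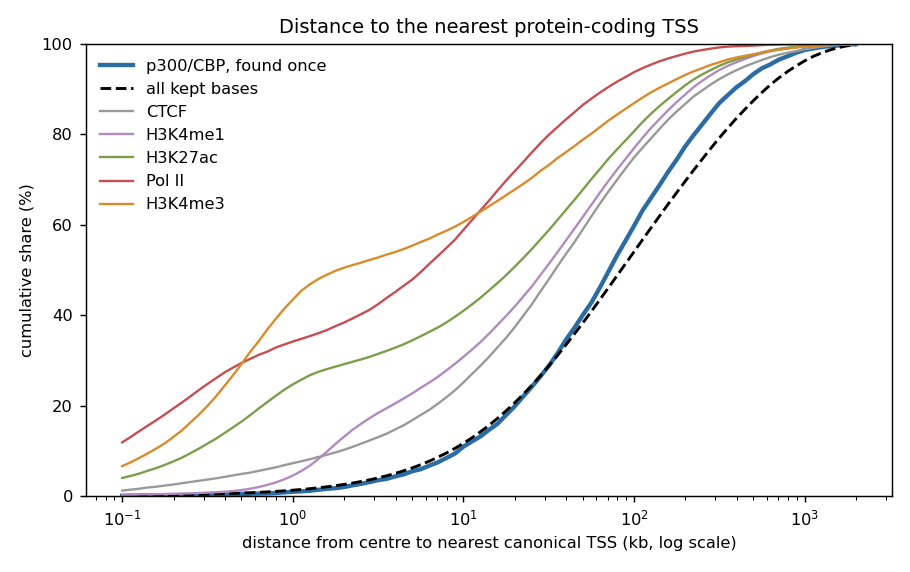
Cumulative share (%, vertical axis) of peak centres of each list by distance to the nearest canonical TSS of a protein-coding gene (kb, log scale, horizontal axis); the dashed line is every 50th kept base. The p300/CBP line stays close to that of the bases up to 50 kb and passes above it beyond, while the lines of the other 5 lists lie to the left.

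Position within genes was close to that of the bases. Of the found-once peaks, 4730 (58.0%, 56.9% to 59.1%) lay outside protein-coding genes, where 58.0% of kept bases lie, and 3167 (38.8%, 37.8% to 39.9%) in introns against 37.8%. First introns held 11.0% (10.4% to 11.7%) against 8.83% of bases, and later introns 27.8% (26.8% to 28.8%) against 28.96%. Coding exons outside promoter windows held 45 peaks (0.552%, 0.413% to 0.737%, against 1.04%), 3′ untranslated exons 92 (1.13%, 0.921% to 1.38%, against 1.16%) and 5′ untranslated exons 0. With the repeated peaks, 60.3% (59.3% to 61.3%) of the 9050 lay outside protein-coding genes and 36.3% (35.4% to 37.3%) in introns.

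The 123 found-once peaks in promoter windows differed from the distal ones in their marks. H3K4me3 overlapped 59.3% (50.5% to 67.6%) of them and Pol II 56.9% (48.1% to 65.3%), against 7.13% (6.299% to 8.06%) and 10.7% (9.68% to 11.8%) of the peaks beyond 100 kb. H3K27ac fell from 84.6% (77.1% to 89.9%) to 69.5% (67.9% to 71.1%) between the same classes. TGACTCA was in 26.8% (19.8% to 35.3%) of the promoter peaks and 31.7% (30.1% to 33.3%) of those beyond 100 kb; within 4 strata of width the odds ratio of the motif beyond against within 1.5 kb of a TSS was 1.18 (95% interval 0.766 to 1.81), which covers a difference in either direction.

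Only 127 of 18525 genes with a TSS in the kept sequence had a kept peak centre in their promoter window, and 24 had at least 2. Of these 24, 14 had at least 2 found once. They included the cytokine gene CSF2 (a granulocyte-macrophage growth factor), CXCL8 (a neutrophil chemokine) and CCRL2 (a chemokine receptor-like protein, with 3 peaks). At CXCL8 a 400-bp peak with 1 TGACTCA was centred 36 bp upstream of the TSS and a 100-bp peak lay 764 bp downstream, both with H3K4me1 and H3K4me3 but outside H3K27ac itself. At CSF2 2 peaks of 100 bp were centred 132 bp upstream and 18 bp downstream. The others with at least 2 found once were CHRNA1 (a muscle acetylcholine receptor subunit, with 3), AGTPBP1, DUSP1 (a phosphatase of MAP kinases), ECT2 (an exchange factor of small GTPases), FLOT1 (flotillin), KRTAP2-3 (a hair keratin-associated protein), MARCHF4, PRDM10, PTPRH (a tyrosine phosphatase), SVIL (the actin-binding supervillin) and ZBTB38. The promoter windows of all 14 overlapped H3K27ac. Their peaks were counted as listed, without joining close ones. Such pairs lay at CSF2 and at DUSP1, where 2 peaks of 100 bp were centred 1252 and 1402 bp upstream. Whether these pairs are separate sites was not tested. ZNF114 had 2 peaks, 1 of them found once. The other 9 genes had none found once: 8 copies of TAF11L, of which none had H3K27ac at its promoter window, and RFPL4A, which had it.

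Many peaks had a neighbour close by. Linking peaks across a fixed largest gap, given with the processing, put 4689 of the 9050 (51.8%, 50.8% to 52.8%) into 1690 clusters, and 4361 stood alone. Of the found-once peaks 4006 (49.1%, 48.0% to 50.2%) were in 1598 clusters, of which 1112 had 2 peaks, 299 had 3, 110 had 4 and 77 had at least 5. These clusters had a median span of 3.75 kb and reached 39.4 kb. The nearest neighbour of a found-once peak was a median of 13.5 kb away, and for 1325 peaks (16.2%) it was less than 500 bp away. Joining all kept peaks less than 500 bp apart lowered the share in clusters from 51.8% to 40.7%.

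Clustered peaks overlapped H3K27ac and Pol II more often than single ones but did not hold AP-1 sites more often. H3K27ac overlapped 65.4% (63.9% to 66.8%) of single found-once peaks, 83.3% (81.7% to 84.8%) in clusters of 2, 89.7% (87.9% to 91.2%) in clusters of 3 or 4 and 88.5% (85.2% to 91.2%) in clusters of at least 5. Pol II rose from 11.9% (11.0% to 13.0%) through 19.7% and 27.2% to 41.6% (37.1% to 46.2%). H3K4me1 stood at 82.5% (81.3% to 83.7%), 91.3%, 94.1% and 84.0% (80.4% to 87.2%) in the same 4 classes. Within strata of width the odds of H3K27ac were 3.22 times higher in clusters than in single peaks (2.88 to 3.61) and those of Pol II 2.28 times higher (2.02 to 2.57). TGACTCA was in 33.1% (31.7% to 34.5%) of single peaks and 31.5% (27.3% to 35.9%) of peaks in clusters of at least 5, and its odds within strata of width were lower in clusters (0.839, 0.760 to 0.926). Peaks with H3K27ac had higher odds of the motif than those without (1.23, 1.09 to 1.40, within width). These odds ratios count each peak as independent, although neighbouring peaks can lie in the same H3K27ac region. Joining all kept peaks less than 500 bp apart raised the share with TGACTCA from 29.9% to 34.4%. The odds were not recomputed on joined peaks.

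The largest clusters were tandem copies without H3K27ac. The first, on chromosome 8 (86726651-86838901), held 198 peaks in 112 kb, none of them found once, and a shift of the sequence by 12193 bp matched 38.8% of its bases against a median of 25.2% over other shifts. Another on the same chromosome (86557701-86576401) held 33 peaks, none found once. On chromosome 19 the clusters nearest SULT2A1 (a sulfotransferase), IZUMO2 (a sperm protein) and OR2Z1 (an olfactory receptor) held 52, 33 and 27 peaks, with 16, 17 and 6 copies of a typical word. The cluster of 36 peaks nearest ANKRD30BL (chr2:132967401-133009601), in the region of an ancestral centromere, had 7 peaks found once and matched itself best at a shift of 171 bp (52.6%), the length of the unit of alpha satellite DNA. On chromosome 5, 23 and 18 peaks lay over TAF11L7 to TAF11L10 and TAF11L4 to TAF11L6, copies of a gene related to TAF11, a subunit of the general transcription factor TFIID, that repeat every 3434 bp at 95.9% identity in the second of these clusters. None of these 8 clusters had a peak in H3K27ac.

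Of the other 12 of the 20 largest clusters, 4 were also in repeated sequence: 13 peaks (5 found once) and 8 peaks (0 found once) on chromosome 1 nearest H3-7 and PPIAL4E, 8 peaks over ABR on chromosome 17 with 1 found once, and 10 peaks on chromosome 18 nearest USP14, where 8 peaks did overlap H3K27ac. A further 2 had words found once but stood apart. All 11 peaks in PCBD2 (chr5:134259451-134264101) shared words with the mitochondrial genome and none had H3K27ac, and the 9 peaks nearest CENPC (chr4:68264201-68266801) lay in sequence that matched itself at 71.5% of bases on a shift of 1019 bp, with 3 peaks in H3K27ac. The TSSs of H3-7, PPIAL4E, USP14 and CENPC lay 365, 194, 46.1 and 144 kb from the edges of their clusters. Mitochondrial words were present in 50 of the 9050 peaks, among them 4 of the widest, on chromosome 1 between 564451 and 570301 (widths 1600, 1550, 950 and 900 bp). How repeated sequence and mitochondrial copies come to be listed was not tested.

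**Figure D3:**
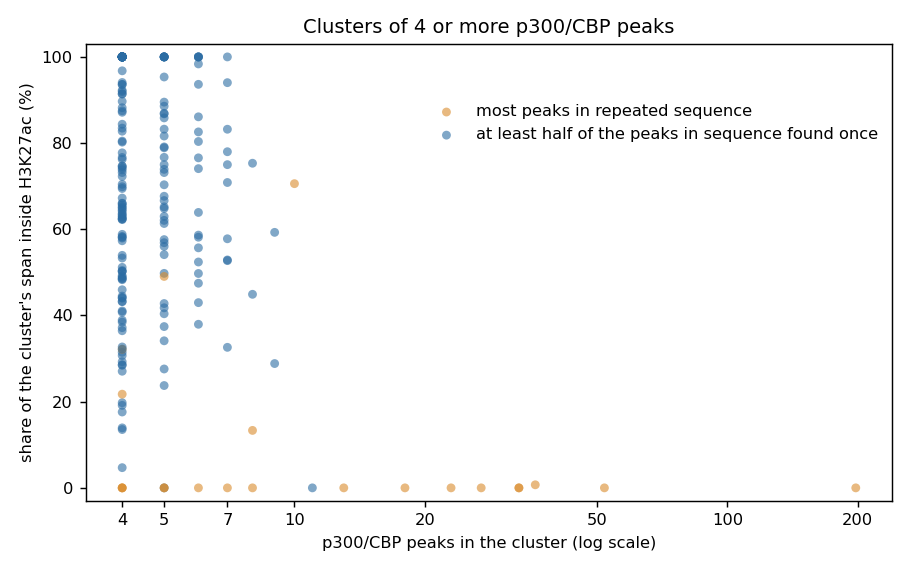
Each point is 1 cluster of at least 4 p300/CBP peaks, by its number of peaks (log scale, horizontal axis) and the share of its span inside H3K27ac (%, vertical axis), coloured by whether at least 50% of its peaks are in sequence found once. Clusters of up to 9 found-once peaks spread over the whole range, and all clusters of 11 or more peaks are at or near 0.

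Apart from those at PCBD2 and CENPC, the clusters of found-once peaks among the 20 largest lay at acetylated loci. Of 77 clusters with at least 5 peaks, at least 50% of them found once, the median share of the span inside H3K27ac was 70.9% and 60 reached 50%. In the 17 clusters of that size with fewer found once the median was 0% and 13 had none. The IER3 cluster (chr6:30710651-30749951) held 9 peaks, all in H3K27ac. A cluster in VMP1 (chr17:57906651-57933401), which encodes an autophagy membrane protein, overlapped the microRNA gene MIR21 and held 8 peaks, all in H3K27ac, with 75.3% of the span acetylated. The others among the 20 largest were 8 peaks nearest PTK2 (focal adhesion kinase) on chromosome 8, with 7 in H3K27ac and 5 holding TGACTCA, 7 nearest TOMM20 over the long noncoding RNAs LINC02971 and LNCATV, 7 nearest DUSP5 (an ERK phosphatase) and 7 at ADGRF5 (an adhesion receptor). From the cluster's edge, the TSS of PTK2 was 16.3 kb away, that of TOMM20 172 kb and that of DUSP5 82.9 kb, while that of ADGRF5 lay inside its cluster.

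Counting found-once peaks alone, chosen after the values had been seen, brought up further loci with 7 peaks each. They were 33.8 kb from LIF (a cytokine of the interleukin-6 family), 1.79 kb from PLAU, over the TSS of MYOF (myoferlin, a membrane protein), 60.8 kb from F3 (tissue factor, which starts blood coagulation), 59.7 kb from SERP2, in MBP (myelin basic protein) and 61.8 kb from XCR1 (a chemokine receptor). H3K27ac overlapped all 7 peaks at LIF, PLAU, MYOF and F3, 6 near SERP2 and XCR1 and 5 in MBP. The 7 found-once peaks of the ANKRD30BL cluster also linked up, with none in H3K27ac. Clusters of 6 included one in NRP1 (neuropilin, a semaphorin receptor), one in PLXNA2 (a plexin), one over ENC1 and one 17.8 kb from UACA, each with all 6 peaks in H3K27ac. The distances run from the cluster's edge to the nearest TSS and do not name the gene that a peak acts on.

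Density along the chromosomes differed between all peaks and those found once. The 9050 peaks came to 3.43 per Mb of determined kept sequence and the found-once ones to 3.09. Chromosomes 8, 19 and 10 had the most of all kept peaks (5.71, 5.41 and 4.88 per Mb), and chromosomes X, 18 and 16 the fewest (0.716, 2.15 and 2.20). Found-once peaks were 67.6% of the peaks on chromosome 8 and 47.6% on chromosome 19, against 86.2% to 100% on the other chromosomes. Counting them alone, chromosomes 10, 20 and 3 led with 4.68, 4.59 and 4.22 per Mb, chromosome 8 had 3.86 and chromosome 19 fell to 2.57. Chromosome X stayed lowest at 0.645, with 6.12 H3K27ac regions per Mb, also the fewest.

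The chromosome richest in genes had few found-once peaks for its acetylated regions. Chromosome 19, with 30.9 protein-coding genes and 39.3 H3K27ac regions per Mb, had 6.54 found-once peaks per 100 H3K27ac regions, and chromosomes 22, 16 and X had 9.46, 10.1 and 10.5. Chromosomes 8, 3 and 13 had 30.8, 29.1 and 28.7, against 21.1 over all. These ratios leave out repeated peaks, and on chromosome 19 only 47.6% of peaks were found once. They also count the H3K27ac regions near a TSS, of which 1.19% held a found-once peak against 16.7% of the distal ones. The part of either in the differences was not tested. Across the 23 chromosomes the found-once density had a Spearman correlation of 0.36 (Pearson r of 0.24) with H3K27ac and of 0.02 with genes, whereas H3K27ac had 0.86 with genes. These describe 23 points of 1 library, which share copy number and base composition, and copy number of the line was not analysed here.

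**Figure D4:**
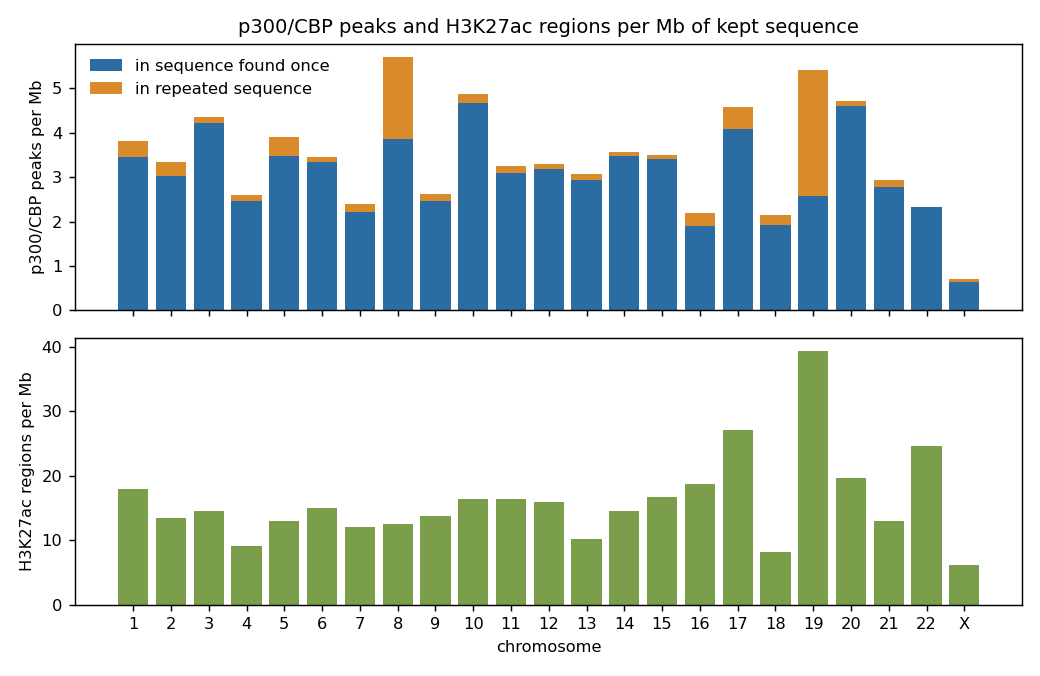
Upper panel, kept p300/CBP peaks per Mb of determined sequence on each chromosome, stacked as found once (blue) and repeated (orange); lower panel, H3K27ac regions per Mb. Repeated peaks add most on chromosomes 8 and 19, and chromosome X is lowest in both panels.

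Within chromosomes the found-once peaks were uneven. Of 2647 windows of 1 Mb, 733 (27.7%) held none, the median held 2, and the 172 with at least 10 (6.50%) held 28.1% of the peaks. The highest count was 25, in 2 windows of chromosome 8, one with EXT1, SAMD12 and TNFRSF11B and one with POU5F1B and MYC (an oncogenic transcription factor). Windows with 24 lay on chromosome 1 at DPYD, on chromosome 10 around VIM (vimentin) and on chromosome 20 around JAG1 (a Notch ligand), and one with 23 on chromosome 10 with ITGB1 (an integrin) and NRP1. The window with JUN on chromosome 1 held 20.

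Few genes had peaks nearby. With windows of 25 kb on each side of the TSS, 1857 of 18525 genes (10.0%) had a kept peak and 1716 (9.26%) a found-once one. By number of found-once peaks, 1202 genes had 1, 342 had 2, 106 had 3, 36 had 4, 16 had 5 and 14 had at least 6. Genes whose promoter window overlapped H3K27ac had one more often (11.0%, 10.5% to 11.6%, of 11479) than genes whose window did not (6.40%, 5.85% to 6.996%, of 7046). Within 10 kb, 813 genes (4.39%) had a kept peak and 750 (4.05%) a found-once one. Within 100 kb the shares were 31.3% and 29.4% of all genes, 18.6% held the TSS nearest to a kept peak, and 17.6% held the TSS nearest to a found-once peak.

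The genes with the most peaks were copies of a few genes when all peaks were counted, and other genes when only peaks found once were. Counting all kept peaks, the first 15 were 10 TAF11L copies (8 to 23 peaks, none found once), PCBD2 (11), SULT2A1 (8, none found once), DUSP6 (8), ADGRF5 (7) and KRTAP4-7 (7, with 5 found once). Counting found-once peaks, PCBD2 was followed by DUSP6 with 8, by ADGRF5, PLAU, MYOF, ANXA2 (annexin A2, a membrane-binding protein and plasminogen receptor) and IER3 with 7, and by BCAR3 (an adaptor of Src signalling), KLF6, ENC1, PLCB1 (a phospholipase C), CAPN2 (calpain 2), CCRL2 and FLOT1 with 6. The promoter windows of these 14 genes overlapped H3K27ac except that of ADGRF5, and that of PCBD2 did although none of its peaks did. Neighbouring genes share peaks, as IER3 and FLOT1 do. Close peaks were counted separately, as listed, and the counts per gene were not recomputed on joined peaks.

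The peaks of DUSP6 lay in 3 groups: 2 downstream of the TSS at 5.68 and 5.95 kb, 1 of 300 bp at 0.172 kb upstream, and 5 between 18.5 and 23.7 kb upstream. All 8 overlapped H3K27ac, the 3 nearest overlapped Pol II and H3K4me3, and 2 of the far ones held TGACTCA. At PLAU all 7 peaks were upstream, from 1.97 to 23.2 kb, and each overlapped H3K27ac. At ANXA2 3 were downstream (4.76 to 23.2 kb) and 4 upstream (2.17 to 10.6 kb), again all in H3K27ac. At KLF6, with 6 peaks, 3 lay downstream (8.08 to 23.1 kb) and 3 upstream (20.1 to 21.5 kb), all 6 in H3K27ac. At MYOF 6 lay in the gene up to 23.4 kb from the TSS and each of the 7 overlapped both H3K27ac and Pol II.

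Gene lists were described by how many members had a found-once peak within 25 kb, beside 9.26% of all genes. The lists were written with earlier results of these data known, so the shares are a description with no test. Of 20 genes of TEAD, YAP/TAZ and their targets with a TSS in the kept sequence, 12 had one, among them CRIM1 (5 peaks), ANKRD1 (4), AXL (3, a receptor kinase), NT5E (3) and CCN1 (2), and their median within 100 kb was 2 peaks against 0 for all genes. YAP1, WWTR1 (TAZ), TEAD2, TEAD3, TEAD4, F3, TGFB2 and ARHGEF17 had none within 25 kb. Of these, TEAD2, TEAD3, TEAD4 and ARHGEF17 had none within 100 kb either. Of 20 mesenchymal genes 11 had one (55.0%), with TGFBI (5), VIM (4), and LOX, FN1 and ZEB1 with 1 each. CD44 had none within 25 kb but 5 within 100 kb. CDH2, SPARC, SNAI1, ZEB2, TWIST1, PRRX1, COL5A1 and COL6A1 also had none within 25 kb. Of these, ZEB2, TWIST1, PRRX1 and COL6A1 had none within 100 kb either. Of 26 integrins and laminins 12 had one (46.2%), led by LAMB3 and LAMB1 with 3 each, and of 20 inflammatory genes 9 (45.0%), with CSF2 (4), CXCL8 (2), CXCL2 (2) and IL6 (1). IL1A, IL1B, CXCL1, CXCL3, CXCL5, CCL2, CCL5, LIF, IL11, NFKBIA and PTGS2 had none within 25 kb. The room between the midpoints to the next TSS had a median of 150 kb for the TEAD list, 164 kb for the mesenchymal, 110 kb for the integrin and laminin and 63.9 kb for the inflammatory list, against 60.2 kb for all genes, and was not adjusted for. It was 191 kb for the neuron list, of whose 15 genes none had a peak within 25 kb.

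Genes of growth factor signalling were in between. Of 23 genes of EGFR and MAPK feedback 8 had a peak (34.8%), with DUSP6 (8), IER3 (7), DUSP1 (3), HBEGF, EREG and SPRY1 (2 each), and of 21 of TGF-beta signalling 5 (23.8%), with SMURF2 (5) and SMAD3 (4, and 13 within 100 kb). Members with none included DUSP5, SPRY2, SPRY4, ETV4 and ETV5 of the first list and TGFB1, TGFBR1, SMAD2 and SMAD4 of the second. Among the Fos and Jun genes FOSL1 had 3 and FOSL2 1. JUN had none within 25 kb but 7 within 100 kb, and FOS, JUNB and JUND had none within 100 kb. Of 31 genes whose promoters served as capture baits in the study, chosen by its authors in these cells and hence not independent, 19 had one (61.3%).

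The remaining lists ranged from 0 of 15 to 4 of 15 members. The luminal breast list had 3 of 15: MLPH (3), GATA3 and TFF1 with 1 each, and 6 of 15 within 100 kb, with 0 there at ESR1, PGR and FOXA1, 4 at MLPH, 3 at GATA3, 2 at XBP1 and 1 each at CA12, TFF1 and TFF3. Of all genes 29.4% had one within 100 kb. Epithelial junction genes had 2 of 14 (14.3%), CLDN4 and ELF3, and 7 of 14 within 100 kb, among them CLDN3 (5), RAB25 (3) and CDH1 (E-cadherin, 1). The actin cytoskeleton list had 4 of 28 (14.3%), led by ACTN4 with 5, and the ATF, MAF and BATF list 3 of 17 (17.6%). Genes for histone acetyltransferases, deacetylases and bromodomain readers had 2 of 24 (8.33%), KAT2B and HDAC2, and EP300 had none within 100 kb while CREBBP had 1. Cell cycle genes had 1 of 26 (3.85%, 0.682% to 18.9%), with all 26 promoters acetylated. Ribosomal protein genes had 5 of 80 (6.25%, 2.70% to 13.8%), with 77 acetylated. Within 100 kb these lists had 9 of 26 (34.6%) and 23 of 80 (28.75%), beside the 29.4% of all genes. Lists of other cell types had 0 of 15 for neurons, 1 of 17 for blood (PTPRC), 1 of 13 for skeletal muscle, 5 of 269 olfactory receptors (1.86%) and 4 of 15 for hepatocytes (26.7%), where APOA1 shares its peak with APOC3, and FGB, with 3, shares with FGA. The 3 FGB peaks overlapped H3K4me1 and no H3K27ac.

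**Figure D5:**
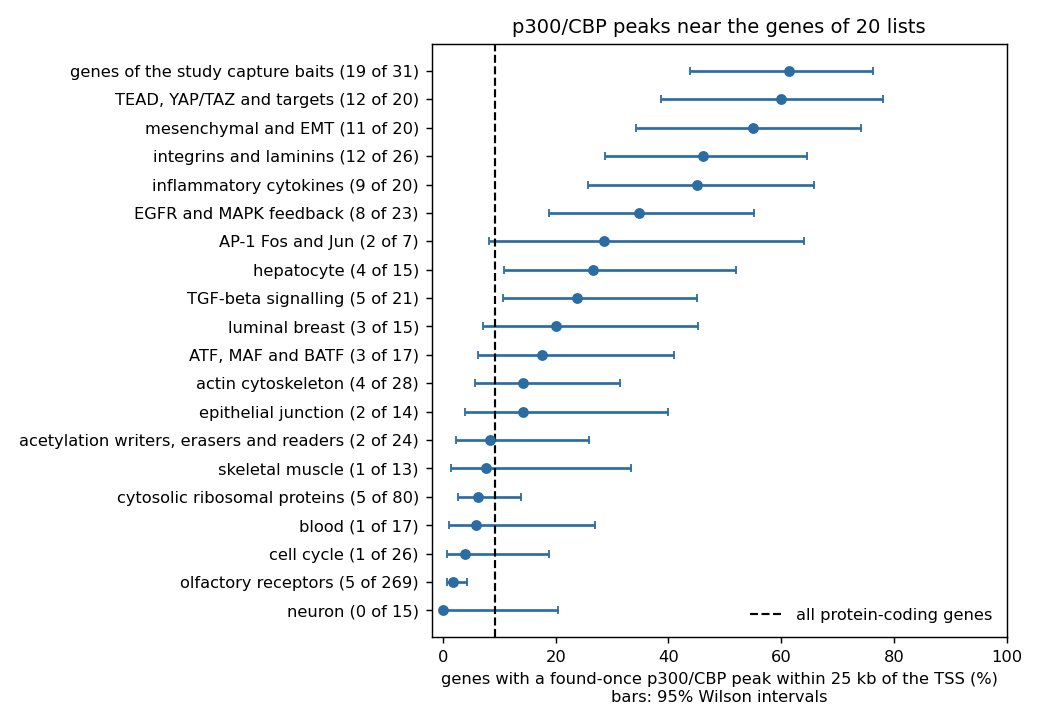
Share of the genes of each of 20 lists with a found-once p300/CBP peak within 25 kb of the TSS (%, horizontal axis; points), with 95% Wilson intervals as bars and the counts beside the names; the dashed line is the share of all protein-coding genes, 9.26%. Shares run from 0 of 15 neuron genes to 61.3% of the capture bait genes. The lists were written with earlier results known, and some members share peaks or lists. The bars cover counting error only, and no list was tested against the line.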

How the data were processed

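One ChIP-seq library for p300/CBP, made from pooled immunoprecipitations, and 2 for each of H3K4me1, H3K27ac, H3K4me3, Pol II and CTCF, together with 2 of input that were not used here, were available for MDA-MB-231 cells. The deposited files were lists of peak positions on hg19 with no value per peak. The authors processed uniquely mapped reads in bins of 50 bp with PASHA, merged replicates and called peaks by thresholding in IGB. Names of the deposited files give a scaled and background-subtracted signal for p300/CBP and the histone marks, a scaled one for Pol II and neither step for CTCF, with thresholds that differ between antibodies. For p300/CBP the threshold was 60 and the maximum gap 50 bp. The paper's methods name BWA as aligner and the submitters' processing notes Bowtie2, which could not be reconciled here. Depth cannot be read from positions.

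Peaks closer than 5 Mb to the longest run of N of a chromosome were left out. Listed end positions are the first base after the peak, and coordinates are printed as listed. Genes came from GENCODE release 44 on GRCh37 (19819 protein-coding genes, 18525 with their canonical TSS in the kept sequence). A promoter window reached 1.5 kb to each side of the TSS, overlap meant at least 1 shared bp, and clusters joined peaks across gaps of up to 12.5 kb. Copies of 31-base words were counted in GRCh37 chromosomes 1 to 22, X and Y, and matches of 16 motifs on both strands. Shares have 95% Wilson intervals, and odds ratios were combined over 4 strata of width by the Mantel-Haenszel method. Named genes were those of the 20 largest clusters, the 15 genes with the most peaks, genes with at least 2 peaks in their promoter window and the 20 gene lists; genes and clusters ranked by found-once peaks, and windows of 1 Mb, were added after the values had been seen. The members and lists were chosen with earlier results of these data known. The scripts were tested on simulated positions and words with known answers. Python 3.11.15, NumPy 2.4.6, SciPy 1.17.1, statsmodels 0.14.6, numba 0.67.0 and matplotlib 3.10.9 were used. Some named genes and sequences are not reported here.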

Additional observations from a re-analysis of the deposited data

How the results depend on the processing

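No paired analysis was possible because the p300/CBP peaks come from 1 library and the replicates of the other antibodies were merged before peak calling. Leaving out a replicate was impossible for that reason too, and a stricter peak threshold could not be tried because the list has no value per peak. The antibody does not separate p300 from CBP, the intervals cover counting error only, and copy number was not analysed here. Of 68 values recomputed under alternatives for 9 results, 25 stayed within the counting interval or, for counts, within 1.5 times, and 43 moved out of it. The restriction to sequence found once was chosen after seeing the data.

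Without the exclusion around runs of N there were 13719 peaks, the median distance to a TSS was 138.0 kb, 1.22% lay within 1.5 kb of a TSS, 25.4% in introns, 72.2% outside protein-coding genes and 65.8% in clusters, 21.1% held TGACTCA and 50.1% overlapped H3K27ac. With an exclusion of 1 Mb the median distance was 82.1 kb, 33.2% lay in introns, 63.8% outside genes and 56.1% in clusters, 27.4% held TGACTCA and 62.9% overlapped H3K27ac. Of the 4669 peaks left out within 5 Mb, 31.7% were found once. Keeping only the 5355 peaks of 150 bp or more, the median width, the distance was 75.2 kb, 1.38% lay within 1.5 kb, 61.4% outside genes and 43.0% in clusters, 41.7% held TGACTCA, 78.9% overlapped H3K27ac, and 6.52% of genes had a peak within 25 kb. Joining peaks less than 500 bp apart gave 37.4% in introns, 59.3% outside genes, 40.7% in clusters, 34.4% with TGACTCA and 70.8% with H3K27ac. With found-once peaks only, 1.51% lay within 1.5 kb, 38.8% in introns, 58.0% outside genes and 49.1% in clusters, 32.4% held TGACTCA, 75.5% overlapped H3K27ac and 9.26% of genes had a peak within 25 kb. All basic TSSs gave a median of 15.6 kb and 9.15% within 1.5 kb. Gaps of up to 5 and 25 kb put 41.4% and 60.6% of peaks into clusters. TGANTCA was in 39.5% of peaks, and 42.0% held TGACTCA after widening by 100 bp on each side. Within 10 and 100 kb 4.39% and 31.3% of genes had a peak, and 18.6% held the nearest TSS of one.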
